A study of Homo sapiens with 2 samples.

Results

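The genes described here encode 10 immune checkpoint ligands and related brakes on immunity that tumour cells can carry: CD274, PDCD1LG2, CD276, VTCN1, ICOSLG, PVR, PVRL2, CD47, NT5E and IDO1. They were chosen by symbol, and all 10 were found once each among the 57820 genes of the tables. Poly(A)-selected RNA-seq was done on 2 human lines from liver tumours, and each line gave 1 library. HepG2 carries the label hepatocellular carcinoma. SKHEP1 came from an adenocarcinoma of the liver, and its label gives the cell type as endothelial. Both are labelled wild type and were grown in the same serum-containing medium, and the labels name no cytokine or other treatment. The study was made to examine the long noncoding RNA PURPL, so the checkpoint ligands were not its subject.

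Checkpoint ligands are surface proteins that bind receptors on T cells, natural killer cells or macrophages and dampen or tune their activity. PD-L1 and PD-L2 engage PD-1, CD155 and nectin-2 engage TIGIT and the activating receptor CD226, and CD47 engages SIRP-alpha on phagocytes. CD73 and IDO1 are enzymes that act through small molecules, extracellular adenosine and kynurenine. Interferon-gamma from T cells is a well known inducer of PD-L1, PD-L2 and IDO1.

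The libraries held 19940557 expected counts (SKHEP1) and 22477757 (HepG2), and 3 counts, taken as the floor, equalled 0.149 and 0.135 counts-per-million (CPM). Of 7 hepatocyte markers, 6 had 0 counts in SKHEP1 and all were detected in HepG2. The endothelial label of SKHEP1 was not matched by its defining markers, since CDH5 had 1 count, KDR and ERG 0, TEK 5, VWF 4 and TIE1 10. All 4 mesenchymal markers listed, VIM, COL1A1, COL3A1 and CD44, were at least 4-fold higher in SKHEP1, as were 16.5% of all genes compared. Their summed counts were 199367 in SKHEP1 and 15 in HepG2. Of 14 blood cell markers, 1 reached 10 counts in SKHEP1 and 3 in HepG2, with summed TPM (transcripts-per-million, a level per transcript length) of 3.09 and 6.0, and PTPRC, the pan-leukocyte marker CD45, had 5 and 0 counts. The markers that reached it were CD14, at 40 and 58 counts, and in HepG2 also CD4 (0 and 13) and CD79A (2 and 13), and their part in the results was not tested. None of the 15 genes for the immune-cell receptors of these ligands and related checkpoints, such as PDCD1 (PD-1), TIGIT and ICOS, reached 10 counts in either library. Without replicates no difference was tested. The 95% intervals below are exact and cover counting error only. Amplified reads with no molecular identifier can stem from the same molecule, so the true intervals may be wider.

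SKHEP1 carried far more mRNA for PD-L2, CD47 and CD73 than HepG2, and HepG2 carried more for the ICOS ligand. CD276, PVR and PVRL2 were well expressed in both lines, with HepG2 over SKHEP1 ratios of 1.30, 1.17 and 1.70. Of the 10 genes, 8 had at least 10 counts in either library and were compared. A gap of 4-fold or more was seen for 5 of them, 4 with the higher level in SKHEP1 and 1 with it in HepG2, and the other 3 lay within 4-fold. Over all 15436 genes compared, 16.5% were at least 4-fold higher in SKHEP1, 13% in HepG2 and 29.5% in either direction. VTCN1 and IDO1 stayed below 10 counts in both libraries.

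**Figure D1:**
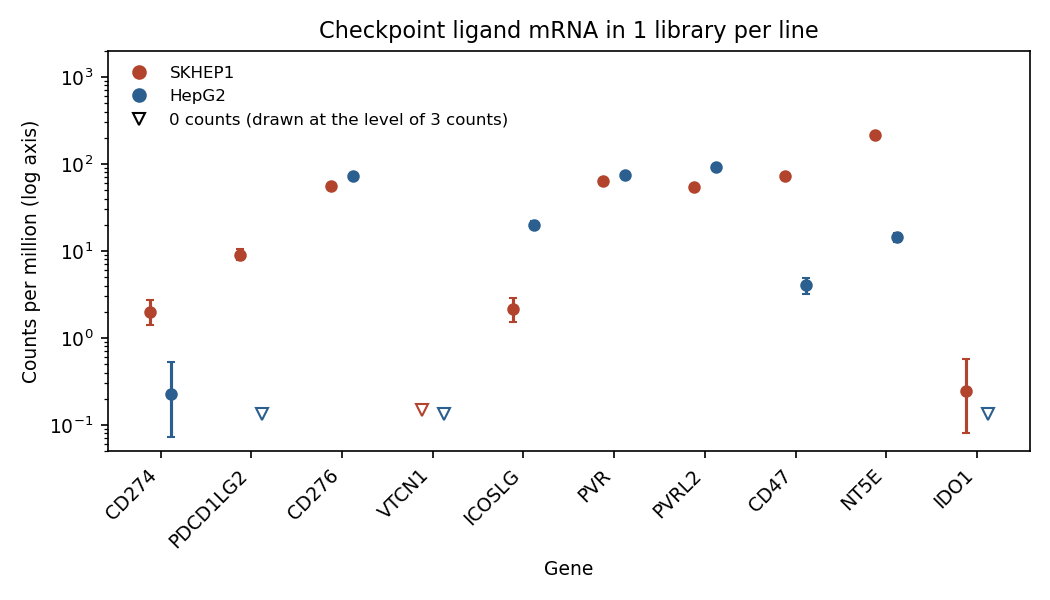
Counts-per-million (log axis) of each gene in SKHEP1 and HepG2, with exact Poisson 95% intervals for counting error. Open triangles mark 0 counts and are drawn at the level of 3 counts. CD276, PVR and PVRL2 lie close together in both lines, while PDCD1LG2, CD47 and NT5E are higher in SKHEP1 and ICOSLG is higher in HepG2.

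The PD-1 ligands were low in SKHEP1 and at or near 0 in HepG2, and PD-L2 exceeded PD-L1. PDCD1LG2, which encodes PD-L2, had 183 counts in SKHEP1 (interval 157 to 212) and 0 in HepG2. Against the floor of 3 counts it was 67.0-fold higher in SKHEP1, and the lower 95% limit of the ratio was 53.9. CD274, which encodes PD-L1, had 40 counts in SKHEP1 (28.6 to 54.5) and 5 in HepG2 (1.62 to 11.7). Its CPM was 1.98 and 0.225, a SKHEP1 over HepG2 ratio of 8.78 with an interval of 3.47 to 28.5, which reaches below 4-fold. By the deposited TPM values, 1.34 and 0.55, CD274 was 2.44-fold higher in SKHEP1 and so within 4-fold. In SKHEP1 the TPM of PDCD1LG2, 6.83, was 5.10 times that of CD274. Only 9.86% of the genes with at least 10 counts in SKHEP1 had a lower TPM than CD274, and 31.1% had a lower TPM than PDCD1LG2. Both genes thus lay in the lower part of the expressed range even in the line where they were higher.

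The reads of CD274 were also weighted differently over its transcript models in the lines, with only 5 counts in HepG2. The isoform-weighted length of CD274 in the tables was 2539 bases in SKHEP1 and 820 bases in HepG2. In GENCODE release 29, a release that may differ from the one behind the tables, the 2 protein-coding transcripts of CD274 listed in the tables are 3343 and 3644 bases long and the 3 processed transcripts 442, 601 and 704 bases. The HepG2 length rests on 5 counts, and the division by this shorter length is what sets the TPM ratio apart from the CPM ratio. Per the same tables, PDCD1LG2 was 2297 bases in SKHEP1. Its HepG2 length, at 0 counts, carries no information on transcripts.

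CD274 and PDCD1LG2 are adjacent on chromosome 9, and the genes on their outer sides did not share the difference. PLGRKT, the plasminogen receptor gene on the CD274 side, had 167 counts (SKHEP1) and 185 (HepG2), a HepG2 over SKHEP1 ratio of 1.01. KIAA1432 (RIC1), on the PDCD1LG2 side, was at 475 and 1063 counts, 2.04-fold higher in HepG2. Among 18 genes listed from this band of chromosome 9, these neighbours included, 13 were compared. Past 4-fold were 1 toward SKHEP1 (16.5% of all genes compared) and 4 toward HepG2 (13%). GLIS3, a zinc-finger transcription factor, was 132-fold higher in SKHEP1 (51.2 to 486.5), and GLDC, the glycine decarboxylase, 45.8-fold higher in HepG2 (37.8 to 55.9). JAK2, a kinase gene near this pair that carries interferon-gamma signals, was 2.17-fold higher in SKHEP1 (1.79 to 2.63).

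The promoter of CD274 is shown because it held matches to the motifs of interferon and cytokine signalling that most of the other genes searched lacked. The 250 bases before the RefSeq start of each gene (GRCh38.p14) were searched on both strands for 5 motifs: GAAANNGAA (interferon response element), TTCNNNGAA (STAT dimer site), GGANNTTCC (NF-kB site), TGANTCA (AP-1 site) and GGGCGG (SP1 site). Of the 10 genes, 8 were searched: CD274, CD276, VTCN1, NT5E, PVR, PVRL2 (as NECTIN2), CD47 and ICOSLG. PDCD1LG2 had no promoter entry in the set used, and IDO1 was left out of the search. Both are named above as induced by interferon-gamma, so CD274 cannot be called the only carrier among the 10. The interferon response element was found in CD274 alone among these 8 and in 6.88% of all 35116 promoters. With so few genes searched, 1 carrier of 8 cannot be set apart from that share. The 2 matches in CD274, TTCACTTTC at -207 to -199 and TTCTGTTTC at -201 to -193 from the start, overlap and lie on the reverse strand. CD274 also held the single STAT dimer match, TTCACCGAA at -125 to -117, a motif found in 6.57% of promoters. The NF-kB site was found in CD274, as GGAAAGTCC on the reverse strand at -111 to -103, and in VTCN1 at -246 to -238, against 3.84% of all promoters. This last match depends on the letters, since a form of the NF-kB motif longer by 1 base, searched first, was in none of the 8 genes. The sequence lies at chr9:5450292-5450541 on the plus strand, and capitals mark the interferon response element.
CD274: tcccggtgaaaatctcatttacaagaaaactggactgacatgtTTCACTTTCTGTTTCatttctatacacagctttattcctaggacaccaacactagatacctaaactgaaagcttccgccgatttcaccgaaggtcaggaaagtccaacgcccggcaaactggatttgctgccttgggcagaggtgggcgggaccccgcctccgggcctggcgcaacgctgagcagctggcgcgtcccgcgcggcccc
The AP-1 motif was in none of the 8 genes, against 6.57% of all promoters. A match is a description of the sequence and not evidence of binding.

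Among the other B7 family members, CD276 was well expressed in both lines, ICOSLG was higher in HepG2 and VTCN1 was not detected. CD276 (B7-H3), a ligand without a settled receptor that is found on many tumours, had 1142 counts in SKHEP1 and 1629 in HepG2. Its CPM was 56.5 (53.3 to 59.9) and 73.4 (69.9 to 77.1), a HepG2 over SKHEP1 ratio of 1.30 (1.20 to 1.40). Of the expressed genes, 77.9% in SKHEP1 and 79.7% in HepG2 had a lower TPM than CD276, so it ranked high in both libraries. ICOSLG, the ligand of the costimulatory receptor ICOS, had 43 counts in SKHEP1 (31.1 to 57.9) and 442 in HepG2 (401.7 to 485.2). It was 9.36-fold higher in HepG2 (6.84 to 13.1), the single gene of the 10 that was past 4-fold in that direction. VTCN1 (B7-H4), an inhibitor of T cells, had 0 counts in both libraries, which allows up to 3 counts in each. PDCD1LG2 and ICOSLG thus stood in opposite order in the lines, with PDCD1LG2 above ICOSLG by TPM in SKHEP1 (6.83 and 0.94) and ICOSLG above PDCD1LG2 in HepG2 (9.16 and 0).

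Of 8 further B7 and B7-like genes listed, 3 were compared. At least 4-fold higher was 1 in SKHEP1 (16.5% of all genes compared) and 1 in HepG2 (13%). C10orf54, which encodes the T cell inhibitor VISTA, had 197 counts in SKHEP1 and 9 in HepG2 and was 24.03-fold higher in SKHEP1 (12.4 to 53.3). NCR3LG1 (B7-H6), the ligand of the activating natural killer receptor NKp30, was at 244 and 2059 counts, 7.69-fold higher in HepG2 (6.73 to 8.81). The butyrophilin BTN2A2 was at 231 and 264 counts. CD80 and CD86, the ligands of CD28 and CTLA-4 on antigen-presenting cells, and HHLA2 had 0 counts in both libraries.

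The TIGIT ligands PVR and PVRL2 were expressed in both lines, and each differed between the lines by less than 2-fold. PVR, which encodes the poliovirus receptor CD155, was at 1293 counts (SKHEP1) and 1659 (HepG2), or 64.0 and 74.8 CPM, a HepG2 over SKHEP1 ratio of 1.17 (1.09 to 1.26). PVRL2, which encodes nectin-2 (CD112), had 1092 and 2043 counts, or 54.1 and 92.1 CPM, a ratio of 1.70 (1.58 to 1.84). The counting intervals of both ratios lie above 1, but no replicate shows whether gaps of this size exceed the spread between cultures. By TPM, PVRL2 exceeded PVR in each line, 1.39 times in SKHEP1 and 2.06 times in HepG2. The 2 genes summed to 85.7 TPM in SKHEP1 and 122 TPM in HepG2, against 8.17 and 0.55 TPM for the PD-1 ligands. In GENCODE release 29 an antisense gene, AC243964.2, overlaps PVR and had 0 counts in SKHEP1 and 123 in HepG2. Since the strand setting of the counting is not given in the sources used here, reads of the 2 genes cannot be told apart with certainty.

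PVR and PVRL2 lie on chromosome 19 near genes that differed strongly between the lines. BCAM, the Lutheran adhesion molecule beside PVRL2, had 87 counts in SKHEP1 and 2871 in HepG2 and was 30.1-fold higher in HepG2 (24.3 to 37.7). TOMM40, the mitochondrial import pore on its other side, was 1.33-fold higher in HepG2, close to the values of PVR and PVRL2. CEACAM19, which overlaps PVR on the same strand in release 29, had 29 and 11 counts, and IGSF23, on the other side of PVR, 1 and 11. Among 10 listed genes of this region, 4 of the 9 compared were at least 4-fold higher in HepG2 (13% of all genes compared) and 1 in SKHEP1 (16.5%). They include APOE (33.0-fold, 28.98 to 37.8) and APOC1 (522-fold, 239.5 to 1423) in HepG2 and the NF-kB subunit RELB (4.06-fold, 3.20 to 5.21) in SKHEP1.

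The other nectins and nectin-like adhesion molecules leaned to HepG2. Of 7 listed, 5 were compared, with 3 at least 4-fold higher in HepG2 (13% of all genes compared) and none in SKHEP1 (16.5%). The median log2 ratio (HepG2 over SKHEP1) of the list was 2.91 against -0.03 over all genes compared. CADM1, a ligand of the natural killer receptor CRTAM, had 42 counts in SKHEP1 and 2965 in HepG2 and was 64.3-fold higher in HepG2 (47.5 to 89.4). CADM4 was 18.5-fold higher (11.7 to 31.0) and PVRL4 7.50-fold (5.12 to 11.4). PVRL1 was 2.46-fold higher in HepG2 (2.19 to 2.77). PVRL3, the nectin-3 partner of nectin-2 and CD155, went the other way at 1116 and 622 counts, 1.97-fold higher in SKHEP1 (1.78 to 2.18).

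CD47 was among the more abundant of the 10 genes in SKHEP1 and low in HepG2. CD47, the signal by which cells avoid phagocytosis, had 1487 counts in SKHEP1 (1412 to 1565) and 89 in HepG2 (71.5 to 109.5). Its CPM was 73.6 and 4.01, a SKHEP1 over HepG2 ratio of 18.3 (14.8 to 23.0). By TPM, at 52.5 and 3.59, the ratio was 14.6. Of the expressed genes, 77.7% had a lower TPM in SKHEP1, but 20.3% in HepG2. The isoform-weighted length of CD47 was 2418 bases in SKHEP1 and 1913 in HepG2, a log2 difference of -0.34 (HepG2 over SKHEP1). Of 11800 genes with at least 10 counts in both libraries, 92.3% had a smaller length difference in either direction. The genes beside CD47 on chromosome 3 were also higher in SKHEP1, but by less than 4-fold, with BBX at 2172 and 837 counts (2.85-fold) and IFT57, a cilium transport gene, at 548 and 224 (2.69-fold).

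Of 8 genes that bind or modify CD47 or act with it, 6 were compared, with 2 past 4-fold toward SKHEP1 and none toward HepG2, where 29.5% of all genes compared were past it in either direction. The median log2 ratio of the list was 0.35, against -0.03 over all genes compared. THBS1, the secreted CD47 ligand thrombospondin 1, was at 2363 TPM in SKHEP1 and 129 in HepG2, an 18.6-fold CPM ratio (18.3 to 18.97). THBS2, at 31 and 5 counts, was the other gene past 4-fold by CPM, at 6.81-fold (2.62 to 22.4), and was 2.39-fold higher by TPM. QPCTL, the enzyme that forms the pyroglutamate CD47 needs to bind SIRP-alpha, was 1.73-fold higher in HepG2 (1.48 to 2.02). SIRPA, the receptor itself, had 262 and 724 counts and was 2.52-fold higher in HepG2 (2.18 to 2.91). CALR, the phagocytosis signal calreticulin, and its receptor LRP1 lay within 4-fold, with CALR at 1413 and 1297 TPM and LRP1 1.71-fold higher in HepG2. The ratio of CD47 was thus close to that of THBS1, and THBS2 went the same way, while QPCTL, SIRPA, CALR and LRP1 did not share it.

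NT5E was the most abundant of the 10 genes in SKHEP1. NT5E encodes CD73, the surface enzyme that turns AMP into adenosine, and had 4374 counts in SKHEP1 (4245 to 4506) and 318 in HepG2 (284.0 to 354.9). Its CPM was 216.5 and 14.3, a SKHEP1 over HepG2 ratio of 15.1 (13.5 to 17.0). Of the expressed genes, 89.6% in SKHEP1 and 31.0% in HepG2 had a lower TPM. The isoform-weighted length of NT5E was nearly equal, at 3210 bases in SKHEP1 and 3205 in HepG2. SNX14, the sorting nexin next to NT5E on chromosome 6, had 1396 and 1612 counts and was 1.05-fold higher in HepG2, and TBX18 on the other side had 0 in both.

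The genes around CD73 in adenosine metabolism differed in both directions. Of 18 listed, 16 were compared, with a median log2 ratio of -0.66. Past 4-fold were 6 toward SKHEP1 (16.5% of all genes compared) and 4 toward HepG2 (13%). ALPL, the tissue-nonspecific alkaline phosphatase that can also release adenosine from AMP, was at 2299 counts (SKHEP1) and 2 (HepG2), with a ratio of 1262 (349 to 10430). The enzymes upstream of CD73 went both ways, but the direction toward SKHEP1 rests on few counts. ENTPD3, which hydrolyses ATP, had 12 counts in SKHEP1 and 1 in HepG2, with a ratio of 13.2 (1.95 to 563), and CD38, which acts on NAD, had 12 and 0. Against the floor each of them was 4.39-fold higher in SKHEP1, just past the limit. Higher in HepG2 were ENPP3, ENPP1 and ENTPD2. ENPP3 was at 1 count in SKHEP1 against 983, with a ratio of 895 (160 to 35400). ENPP1, which releases AMP from ATP, was 12.96-fold higher in HepG2 (11.3 to 15.0), and ENTPD2, which hydrolyses ATP, had 0 and 149 counts and was at least 45.2-fold higher. ENTPD1, the CD39 partner of CD73 on immune cells, had 0 and 2 counts.

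Of the genes for adenosine removal and sensing, some differed and others were near equal. ADK and PNP, adenosine kinase and purine nucleoside phosphorylase, had 1509 and 1383 counts in SKHEP1 and 1549 and 1494 in HepG2. ADA, adenosine deaminase, had 535 and 76 counts and was 7.73-fold higher in SKHEP1 (6.07 to 9.96), while DPP4, the surface protein that anchors it, was 10.8-fold higher in HepG2 (9.66 to 12.2). ADORA1, the A1 receptor, was 31.2-fold higher in SKHEP1 (13.1 to 97.5), and the A2B receptor ADORA2B 1.61-fold (1.33 to 1.94). SLC29A1, the main nucleoside transporter, was the most abundant gene of the list in both lines, at 106 and 89.2 TPM. SLC29A2, also listed, had 100 counts in SKHEP1 and 8 in HepG2 and was 13.7-fold higher in SKHEP1 (6.70 to 32.7).

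IDO1, which starts the breakdown of tryptophan to kynurenine, had 5 counts in SKHEP1 (1.62 to 11.7) and 0 in HepG2. Both values are too low for a comparison, and IDO2, its neighbour on chromosome 8, had 0 counts in both. The liver enzyme for the same step, TDO2, had 641 counts in SKHEP1 and 0 in HepG2 and was at least 235-fold higher in SKHEP1. By TPM, TDO2 in SKHEP1 stood at 33.8 against 0.48 for IDO1. KMO, the next hydroxylase, had 164 and 0 counts and was at least 60.0-fold higher in SKHEP1. Of 21 genes listed for the kynurenine pathway and its sensor AHR, 19 were compared, with a median log2 ratio of 0.25. At least 4-fold higher were 5 of them in SKHEP1 (16.5% of all genes compared) and 5 in HepG2 (13%). Of the genes higher in HepG2, 4 encode other enzymes of the pathway: AFMID, which forms kynurenine, was 10.3-fold higher there (8.89 to 12.04), KYNU 4.28-fold (3.72 to 4.92), HAAO 4.50-fold (3.73 to 5.48) and QPRT 4.59-fold (4.29 to 4.92).

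The AHR receptor itself was near equal, at 1064 and 1085 counts, while 4 listed genes known as its targets differed in direction, 3 toward SKHEP1 and 1 toward HepG2. AHRR, the AHR repressor, was 17.1-fold higher in SKHEP1 (10.1 to 31.0) and TIPARP 2.57-fold (2.33 to 2.84). CYP1B1 was 38.7-fold higher in SKHEP1 (14.8 to 144) and CYP1A1 35.3-fold higher in HepG2 (13.5 to 131). SLC7A5, the tryptophan and kynurenine transporter subunit, was 3.05-fold higher in HepG2 (2.96 to 3.15). WARS, an interferon-inducible tryptophan-tRNA ligase, was at 183 and 131 TPM.

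**Figure D2:**
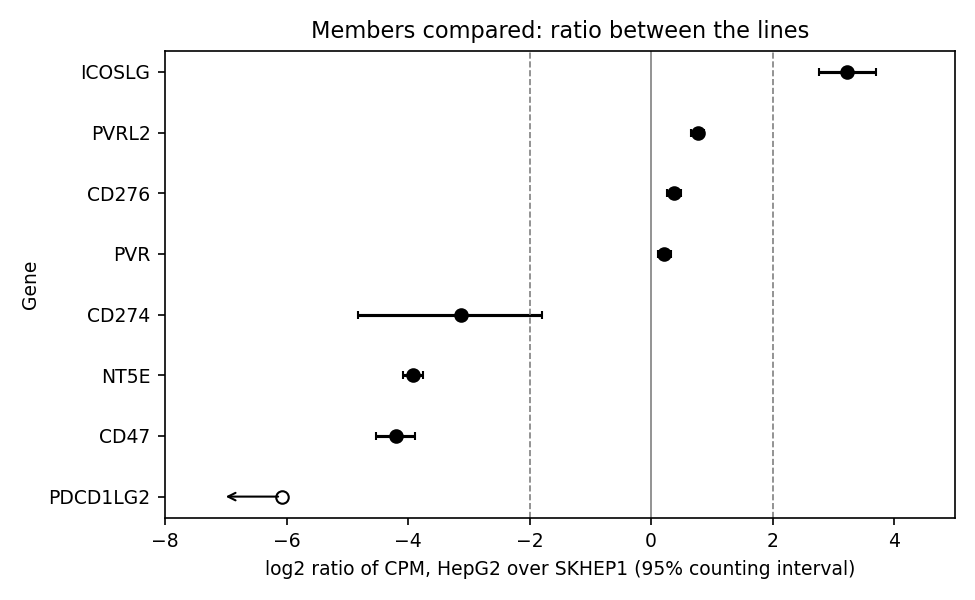
Log2 ratio of CPM, HepG2 over SKHEP1, for the 8 genes compared, with exact 95% counting intervals. Dashed lines mark 4-fold in each direction, and the open point with an arrow marks PDCD1LG2, drawn at the floor because HepG2 had 0 counts. The interval of CD274 crosses the 4-fold line, and those of NT5E, CD47 and ICOSLG do not.

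By TPM the order of the 10 genes differed between the lines. In SKHEP1 it ran from NT5E (114) through CD276 (52.8), CD47 (52.5), PVRL2 (49.8), PVR (35.9), PDCD1LG2 (6.83), CD274 (1.34), ICOSLG (0.94) and IDO1 (0.48) to VTCN1 (0). The counting intervals of CD276 and CD47, of CD47 and PVRL2, and of each neighbouring pair from CD274 down overlapped. In HepG2 it ran from PVRL2 (82.1) through CD276 (60.3), PVR (39.9), ICOSLG (9.16), NT5E (7.31), CD47 (3.59) and CD274 (0.55) to PDCD1LG2, VTCN1 and IDO1 (0 each). There the intervals of neighbours did not overlap from PVRL2 down to CD274, and those of the 3 genes at 0 did. The interval of CD274 (from 0.179) also overlapped that of IDO1 (up to 0.300), though not those of PDCD1LG2 or VTCN1. CD276, PVRL2, PVR and NT5E were thus among the 5 highest in both lines, and the remaining place went to CD47 in SKHEP1 and ICOSLG in HepG2.

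**Figure D3:**
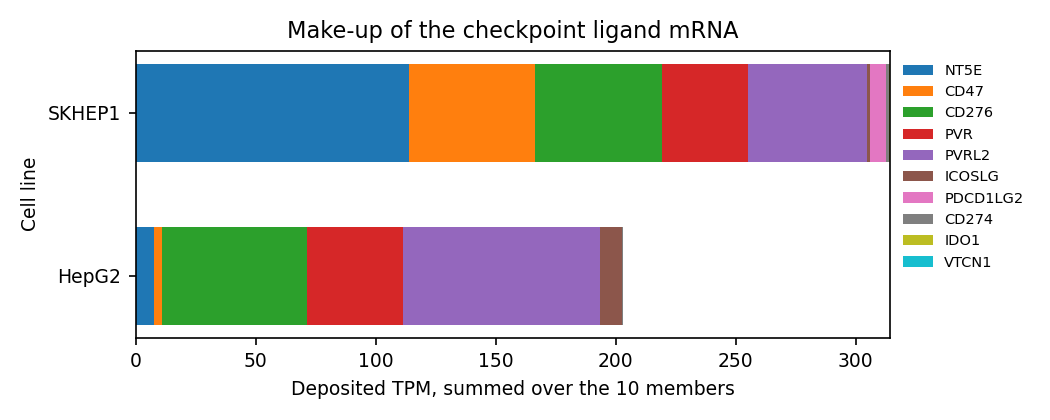
Deposited TPM values of the 10 genes, stacked for each line. The sums are 314.5 in SKHEP1 and 203 in HepG2, and NT5E makes up 36.2% of the sum in SKHEP1 and 3.60% in HepG2.

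The summed TPM of the 10 genes was 314.5 in SKHEP1 and 203 in HepG2. NT5E made up 36.2% of it in SKHEP1 and 3.60% in HepG2, and CD47 16.7% and 1.77%. PVRL2 made up 15.8% and 40.5%, and CD276 16.8% and 29.7%. ICOSLG was at 0.299% and 4.51%. In HepG2, therefore, CD276, PVR and PVRL2 held most of the summed level, and in SKHEP1 NT5E and CD47 stood beside levels of CD276 and PVR close to those of HepG2.

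Of 29 genes listed as known to control PD-L1, all were compared and 26 lay within 4-fold, as did 10885 of all 15436 genes compared. Past that limit were 2 toward SKHEP1 and 1 toward HepG2, and the median log2 ratio was -0.15. IRF1, the interferon-induced transcription factor that activates CD274, had 2820 counts in SKHEP1 and 220 in HepG2 and was 14.1-fold higher in SKHEP1 (12.3 to 16.2). SOCS3, a feedback inhibitor of JAK-STAT signalling, had 424 and 9 counts and was 51.7-fold higher in SKHEP1 (27.0 to 114). IFNGR1, the ligand-binding chain of the interferon-gamma receptor, went the other way at 315 and 2099 counts, 6.07-fold higher in HepG2 (5.39 to 6.85). JAK1 was 2.23-fold higher in SKHEP1 (2.12 to 2.34). CMTM6, which keeps PD-L1 at the cell surface, was 1.12-fold higher in HepG2 (1.05 to 1.19), and its relative CMTM4 1.84-fold (1.71 to 1.97). HIF1A was the most abundant of the list in both lines, at 187 and 157 TPM.

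Other ligands that tumour cells present to immune cells were divided between the lines. Of 16 listed, 15 were matched by symbol and 10 compared, with a median log2 ratio of -0.97. Past 4-fold were 3 toward SKHEP1 (16.5% of all genes compared) and 2 toward HepG2 (13%). FGL1, a liver secretory protein that binds the inhibitory receptor LAG-3, had 0 counts in SKHEP1 and 3806 in HepG2. It was 1156-fold higher in HepG2 against the floor, with a lower 95% limit of 939. CEACAM1, an inhibitory adhesion molecule, was 51.5-fold higher in HepG2 (33.9 to 82.6). HLA-E, the ligand of the inhibitory receptor NKG2A, had 8219 and 1212 counts and was 7.45-fold higher in SKHEP1 (7.01 to 7.92). CD70, the ligand of CD27, was at 91 counts (SKHEP1) and 1 (HepG2), with a ratio of 99.9 (17.5 to 3989), and TNFSF9, the 4-1BB ligand, was 10.5-fold higher in SKHEP1 (5.49 to 22.7). LGALS3, or galectin-3, was 2.20-fold higher in SKHEP1 (1.91 to 2.54).

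**Figure D4:**
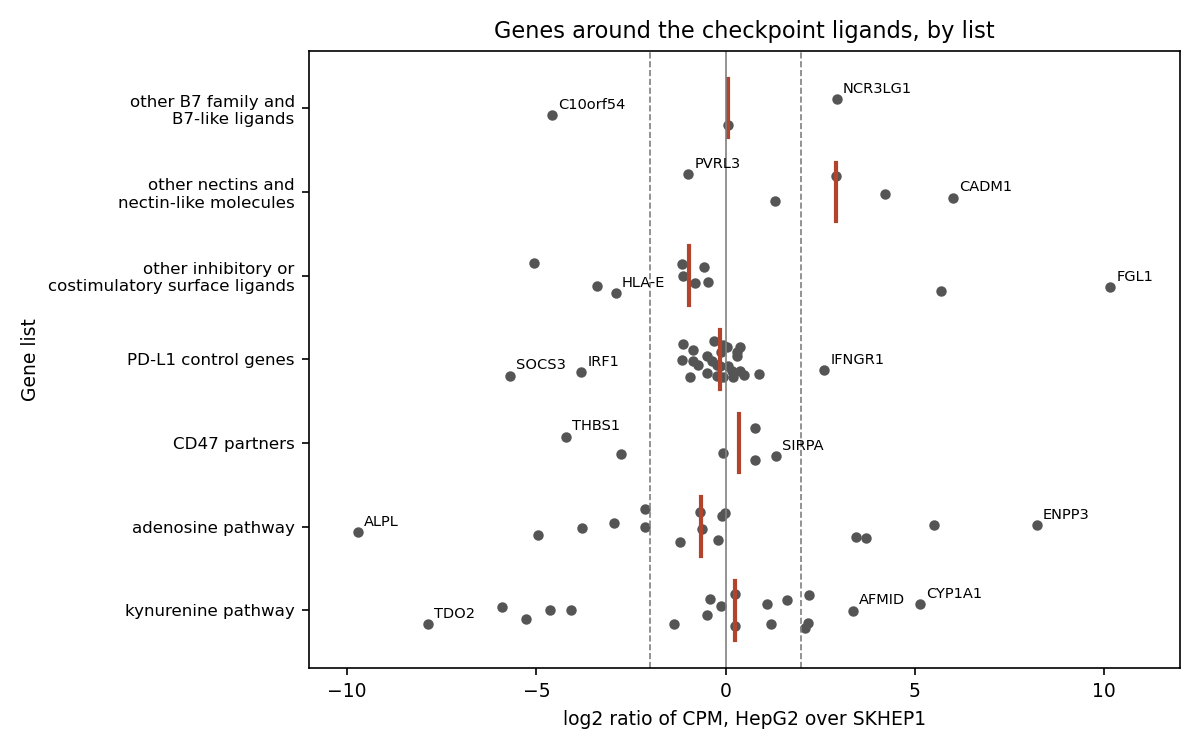
Log2 ratio of CPM, HepG2 over SKHEP1, for the genes of 7 lists around the checkpoint ligands that were compared, 1 point per gene. Red bars mark list medians and dashed lines 4-fold, and genes with under 3 counts in a line are drawn at the floor. Most PD-L1 control genes lie between the dashed lines, and the adenosine and kynurenine lists spread to both sides.

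Promoters are also shown for the genes past 4-fold with at least 10 counts in both libraries, to let their sequences be compared. PDCD1LG2 had a wider gap, but it had 0 counts in HepG2 and no promoter entry. NT5E and CD47, higher in SKHEP1, and ICOSLG, higher in HepG2, all have GC-rich promoters, with 75.2%, 79.6% and 79.2% G and C against a median of 58.0% over all promoters. The genes within 4-fold were above that median too, with CD276 at 80.8% and 77.2% (2 entries), PVR at 70.0% and PVRL2 at 67.6%. High G and C content was thus not particular to the genes past 4-fold. NT5E, CD47 and ICOSLG hold 28, 39 and 36 CpG pairs in 250 bases, against a median of 11 over all promoters. CD276 holds 29 and 23, PVR 27 and PVRL2 19. CD274, with 16 CpG and 54.8% G and C, is lower than these. The SP1 site was found 2 times in NT5E, 6 times in CD47 and 4 times in ICOSLG, with overlapping matches counted, and is in 42.6% of all promoters. It was in 6 of the 8 genes searched, and not in VTCN1 or PVR. The highest number, 7, was in an entry of CD276, which lay within 4-fold. The RefSeq sequences (GRCh38.p14) lie at chr6:85449833-85450082 on the plus strand, chr3:108091032-108091281 on the minus strand and chr21:44240944-44241193 on the minus strand. Capitals mark SP1 sites on either strand.
NT5E: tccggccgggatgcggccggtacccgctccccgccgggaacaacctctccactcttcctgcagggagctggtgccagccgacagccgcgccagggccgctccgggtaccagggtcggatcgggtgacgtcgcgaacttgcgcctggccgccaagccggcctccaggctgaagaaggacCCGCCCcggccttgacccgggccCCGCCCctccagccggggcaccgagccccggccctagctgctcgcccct
CD47: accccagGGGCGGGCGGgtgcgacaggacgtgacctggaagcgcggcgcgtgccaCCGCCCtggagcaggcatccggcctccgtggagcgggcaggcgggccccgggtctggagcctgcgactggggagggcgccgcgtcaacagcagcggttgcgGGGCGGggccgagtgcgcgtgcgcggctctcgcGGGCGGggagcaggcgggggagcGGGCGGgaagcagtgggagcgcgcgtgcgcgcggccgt
ICOSLG: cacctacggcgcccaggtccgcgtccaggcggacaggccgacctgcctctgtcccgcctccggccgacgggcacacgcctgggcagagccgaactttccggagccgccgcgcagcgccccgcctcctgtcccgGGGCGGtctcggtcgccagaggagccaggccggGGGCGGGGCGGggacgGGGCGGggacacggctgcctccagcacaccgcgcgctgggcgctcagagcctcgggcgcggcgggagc
NT5E, CD47 and ICOSLG held the SP1 site and no other motif searched.

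Of the genes with at least 10 counts in both libraries, CD47 had the largest difference in isoform-weighted length. The log2 length difference was at most 0.13 in size for the others, CD276, NT5E, PVR, PVRL2 and ICOSLG. The median over the 11800 genes was 0.05. Of those genes, 72.45% had a smaller difference than CD276 and 68.2% a smaller one than ICOSLG. CD276, with 19 transcripts in the tables, was 1892 bases in SKHEP1 and 2064 in HepG2, and ICOSLG 3805 and 3535.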

How the data were processed

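Gene tables of 2 liver cancer lines, 1 library each, were used, grouped by the cell line label. The submitters' processing notes name hg19 and the tools cutadapt, STAR, RSEM and DESeq2. Tool versions, annotation release and strand setting: not given in the sources used here. Per the file headers, the authors deposited RSEM expected counts, TPM, FPKM and isoform-weighted lengths (bases) for 57820 genes.

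Expected counts were rounded and scaled to CPM with TMM factors (1.01 for SKHEP1, 0.99 for HepG2) from edgeR 4.0.16 in R 4.3.3. A gene was compared when its expected count reached 10 in SKHEP1 or HepG2, and 4-fold was counted as apart. A count under 3 was set to a floor of 3 per library. Folds said to be against the floor use this value, and ratios with 1 to 3 counts are raw. Intervals at 95% are exact Poisson (counts) or Clopper-Pearson conditional (ratios). No test was possible with 1 library per line, and the ratio step was tested on simulated data. Gene neighbours and overlaps came from GENCODE release 29 by stable identifier. Promoters came from RefSeq. IDO1 was not searched for motifs, and PDCD1LG2 had no promoter entry in the set used. The interferon and NF-kB motifs were shortened by 1 base each after results with the longer forms had been seen. The longer interferon form was also in CD274 alone of the 8 genes searched, and the longer NF-kB form in none. Python 3.11.15 was used with scipy 1.17.1, pandas 2.3.3, numpy 2.4.6 and matplotlib 3.10.9.

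The 10 genes and the lists were chosen with earlier results of these data known. For the 7 lists around the ligands, up to 4 genes per list with the largest ratio and at least 100 counts were named. So were up to 2 in the opposite direction and the most abundant in each line. The marker, receptor and neighbour lists were not named in full by this rule. The genes next to CD274, PDCD1LG2, PVR and PVRL2 and the blood cell markers that reached 10 counts were also named. Others were named after their values were seen: ENTPD3, CD38, ADK, PNP, AHRR, TIPARP, GLIS3, GLDC, JAK2, APOE, APOC1, RELB, CMTM6, CD70, TNFSF9, THBS2, ENPP1, ENTPD1, ADA, DPP4, ADORA2A, ADORA2B, SLC29A2, AFMID, KYNU, HAAO, QPRT, AHR, IDO2, CD80, CD86, HHLA2, PDCD1, TIGIT, ICOS, AC243964.2, PTPRC, the endothelial and mesenchymal markers and the neighbours of NT5E and CD47. CD24 was not matched by symbol and is not analysed here. The alternatives were total counts, DESeq2 1.42.0 size factors, TPM, FPKM, thinning, a prior count of 2, unrounded counts, a minimum of 50 or of 1, a 2-fold or an 8-fold limit, and the interval's lower bound.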

Additional observations from a re-analysis of the deposited data

How the results depend on the processing

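Leaving out a replicate was not possible with 1 library per line. No paired analysis was possible because the result comes from no test and each line has 1 library. The number of checkpoint ligands at least 4-fold higher in HepG2 was 1 under all alternatives, and the number higher in SKHEP1 was 4 or 3. It was 3 with TPM or FPKM, with the lower bound of the counting interval, and with a minimum of 50 counts, CD274 being the gene lost in each case. The log2 ratio, HepG2 over SKHEP1, ranged from -3.28 to -1.26 for CD274, -6.67 to -5.89 for PDCD1LG2, -4.24 to -3.86 for CD47, -3.96 to -3.88 for NT5E, 3.17 to 3.30 for ICOSLG, 0.19 to 0.42 for CD276, 0.15 to 0.27 for PVR and 0.72 to 0.81 for PVRL2. Scaling moved the median of all genes compared between -0.07 and 0.01. Of the lists, the CD47 partners higher in SKHEP1 numbered 1 in place of 2 with TPM, with FPKM, with a minimum of 50 counts, with an 8-fold limit and with the lower bound. With a 2-fold limit, 1 CD47 partner was higher in HepG2, 5 other surface ligands and 4 PD-L1 control genes were higher in SKHEP1, and 8 kynurenine genes were higher in HepG2. With an 8-fold limit, 0 other B7 genes, 0 PD-L1 control genes and 2 kynurenine genes were higher in HepG2, and 3 adenosine genes in SKHEP1. With the lower bound, 3 kynurenine genes were higher in HepG2. The adenosine genes higher in SKHEP1 numbered 4 in place of 6 with thinning, a minimum of 50 counts or the lower bound. They numbered 5 with TPM or FPKM. Depth limits CD274 in HepG2, IDO1 and VTCN1, where a few counts decide the value.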
